A study of Mus musculus with 4 samples.

Results

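The Period and cryptochrome genes, their transcriptional activators and the kinases that act on PER proteins were followed as 9 genes of the mammalian circadian clock, taken by symbol out of the 15298 genes measured. They comprise 5 repressors (*Per1*, *Per2*, *Per3*, *Cry1* and *Cry2*), 2 activators (*Arntl* and *Clock*) and 2 casein kinases (*Csnk1d* and *Csnk1e*), and all 9 were listed with reads in every library. RNA of peritoneal macrophages was sequenced to ask how clock transcripts differ with the time of day and with microcurrent stimulation (MCS), a weak pulsed current passed through the abdomen. The 4 libraries came from control mice at ZT2, control mice at ZT14, MCS mice at ZT2 and MCS mice at ZT14, where ZT (Zeitgeber Time) counts hours from lights on. All groups were female BALB/c mice aged 6 weeks. MCS was given at ZT2, so the ZT2 cells were taken directly after the current ended and the ZT14 cells 12 h later. Control mice are labelled as not treated, and by the study's methods they were anesthetized with isoflurane and fitted with the same pads, with no current. There is therefore no group free of anesthesia, and the clock was sampled at 2 times of day, too few to place a peak. Each group is 1 library, how many mice it pools is not stated in the labels or methods, and no value has a replicate check.

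The cells had been sorted as CD11b positive, F4/80 positive and Ly6G negative. All 7 macrophage markers were present in all 4 libraries. The 7 genes of the macrophage list summed to 25493, 24744, 24712 and 27159 CPM (reads scaled to library size by edgeR, the unit of all levels here) in control at ZT2, control at ZT14, MCS at ZT2 and MCS at ZT14, an order kept in every series of 4 values below. *Lyz2*, the lysozyme gene and the most abundant of them, had 17454, 17605, 17344 and 18847 CPM. Single markers differed more than the sum, such as *Mertk* with 188, 97.7, 183 and 117 CPM, *Adgre1* (F4/80) with 1327, 1361, 1086 and 1899.8 CPM and *Cd68* with 285, 299, 300.1 and 215 CPM. The 3 markers of large peritoneal macrophages summed to 748, 756, 706 and 852 CPM, led by *Timd4*. Markers of other cells were present in the sort and differed between libraries. The 4 mast cell genes, led by the chymase *Cma1*, summed to 1708, 1114, 2089 and 891 CPM and were higher at ZT2 than at ZT14 in control and in MCS. The 4 B cell genes, with *Cd79a* highest on average, summed to 996, 1218, 954 and 863 CPM. Of the neutrophil list, 4 of 5 genes were listed (*Ly6g* was not) and summed to 15.0, 14.8, 67.9 and 4.81 CPM, with *S100a9* highest on average. For red blood cells, 6 of 7 genes were listed and summed to 3.23, 1.32, 36.7 and 112 CPM. *Hbb-b1* had the highest mean of these over the 4 libraries, though it was the most abundant in none of them. T cell genes, 3 of 4 listed and led by *Cd3e*, had 15.6, 8.79, 18.1 and 12.8 CPM. Of 4 eosinophil genes only *Siglecf* was listed, with 1.27, 0.659, 5.80 and 14.1 CPM, and the 6 genes of mesothelial cells and fibroblasts, led by *Dcn*, had 17.2, 5.16, 19.7 and 9.10 CPM. These sums move with time or with MCS alongside the clock genes below, and their part in the results was not tested.

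In the clock of mammalian cells, E-boxes of the Period and cryptochrome genes are bound and activated by a dimer of BMAL1, encoded by *Arntl*, with CLOCK. Complexes of PER with CRY act back on this dimer as repressors. Casein kinases 1 delta and epsilon phosphorylate PER and thereby set its stability and its entry into the nucleus. Macrophages carry such a cell-autonomous clock, which times part of their inflammatory and phagocytic program.

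*Per1*, the Period gene known for its rapid response to acute stimuli, had 157, 70.9, 118 and 79.8 CPM. It was higher at ZT2 than at ZT14 in both treatments, and its highest and lowest libraries were both controls. The study also followed *Per1* in macrophages by RT-qPCR at more times of day than were sequenced. Its discussion instead names ZT14 as the time when *Per1* peaks in macrophages, and the cause of this difference was not tested. In control the ZT2 level was 2.22-fold the ZT14 level, a log2 ratio of 1.15 (95% interval 1.01 to 1.28), and in MCS the log2 ratio was 0.56 (95% interval 0.43 to 0.70). Log2 ratios here are those of CPM + 0.1, and intervals are exact binomial intervals on the reads behind the values, so they cover counting error alone and compare libraries, not groups of mice. In bulk RNA such as this, a smaller share of one cell type and less RNA per cell of that type cannot be told apart.

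*Per2*, whose protein is a core repressor of the dimer, had 5.66, 84.6, 9.74 and 46.7 CPM. Both ZT2 libraries were low and both ZT14 libraries high, with the control libraries at both extremes. The ZT14 level was 14.9-fold the ZT2 level in control, a log2 ratio of ZT2 to ZT14 of -3.88 (95% interval -4.35 to -3.48), and 4.80-fold in MCS, where the log2 ratio was -2.25 (95% interval -2.62 to -1.92). *Per3*, the Period gene whose loss leaves the mouse clock running, had 6.35, 64.4, 7.42 and 39.3 CPM, the same order of libraries as *Per2*. Its ZT14 level was 10.1-fold the ZT2 level in control, or -3.32 in log2 (95% interval -3.77 to -2.94), and 5.29-fold in MCS, or -2.39 (95% interval -2.81 to -2.02). In control, *Per2* and *Per3* ranked 2 and 3 from the bottom among the ratios of 12465 genes with a log2 mean CPM of the compared libraries above 0. The lowest was the predicted gene *Gm18853*, with 0 and 96.4 CPM, named after its value was seen. In MCS, *Per3* and *Per2* ranked 23 and 26 from the bottom of 12534 genes. The Period genes thus lay on opposite sides of 0, with *Per1* higher at ZT2 and its paralogs higher at ZT14.

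*Cry1*, encoding a strong repressor of the dimer, had 8.20, 27.0, 10.8 and 22.7 CPM. *Cry2*, its paralog, had 6.24, 23.4, 7.54 and 20.2 CPM. For each cryptochrome the ZT14 libraries were high and the ZT2 libraries low, and both MCS libraries lay between the control libraries. *Cry1* had a log2 ratio of ZT2 to ZT14 of -1.71 in control (95% interval -2.12 to -1.33) and -1.07 in MCS (95% interval -1.44 to -0.72), or 3.30-fold and 2.10-fold higher levels at ZT14. For *Cry2* the ratios were -1.89 (95% interval -2.37 to -1.47) and -1.41 (95% interval -1.85 to -1.01), or 3.75-fold and 2.68-fold higher at ZT14. In control, *Cry2* and *Cry1* ranked 21 and 33 from the bottom, and in MCS 84 and 195.

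*Arntl*, the activator whose transcript cycles in most tissues, had 32.3, 14.7, 33.6 and 19.0 CPM. It was high in both ZT2 libraries, which were nearly level with each other, and lower in both ZT14 libraries. The ZT2 level was 2.20-fold the ZT14 level in control, a log2 ratio of 1.13 (95% interval 0.83 to 1.44), and 1.77-fold in MCS, where it was 0.82 (95% interval 0.55 to 1.10). *Per1* and *Arntl* ranked 210 and 219 from the top in control, and 1360 and 743 in MCS. *Clock*, which encodes the partner of BMAL1, had 93.5, 88.6, 98.3 and 95.3 CPM. Its 4 libraries were close together, and no time difference was detectable at this depth, with log2 ratios of 0.08 in control (95% interval -0.06 to 0.22) and 0.04 in MCS (95% interval -0.09 to 0.18). Among the activators, the difference with time thus lay with *Arntl*.

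*Csnk1d*, encoding casein kinase 1 delta, had 96.3, 106, 93.0 and 121 CPM, highest in MCS at ZT14. Its log2 ratio of ZT2 to ZT14 was -0.14 in control, with an interval that only just excluded 0, and -0.38 in MCS (95% interval -0.51 to -0.25). *Csnk1e*, encoding casein kinase 1 epsilon, had 22.4, 27.8, 27.5 and 29.7 CPM, lowest in control at ZT2. Its ratios were -0.31 in control (95% interval -0.59 to -0.04) and -0.11 in MCS (95% interval -0.36 to 0.14). Neither kinase reached a 2-fold difference in either treatment.

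**Figure D1:**
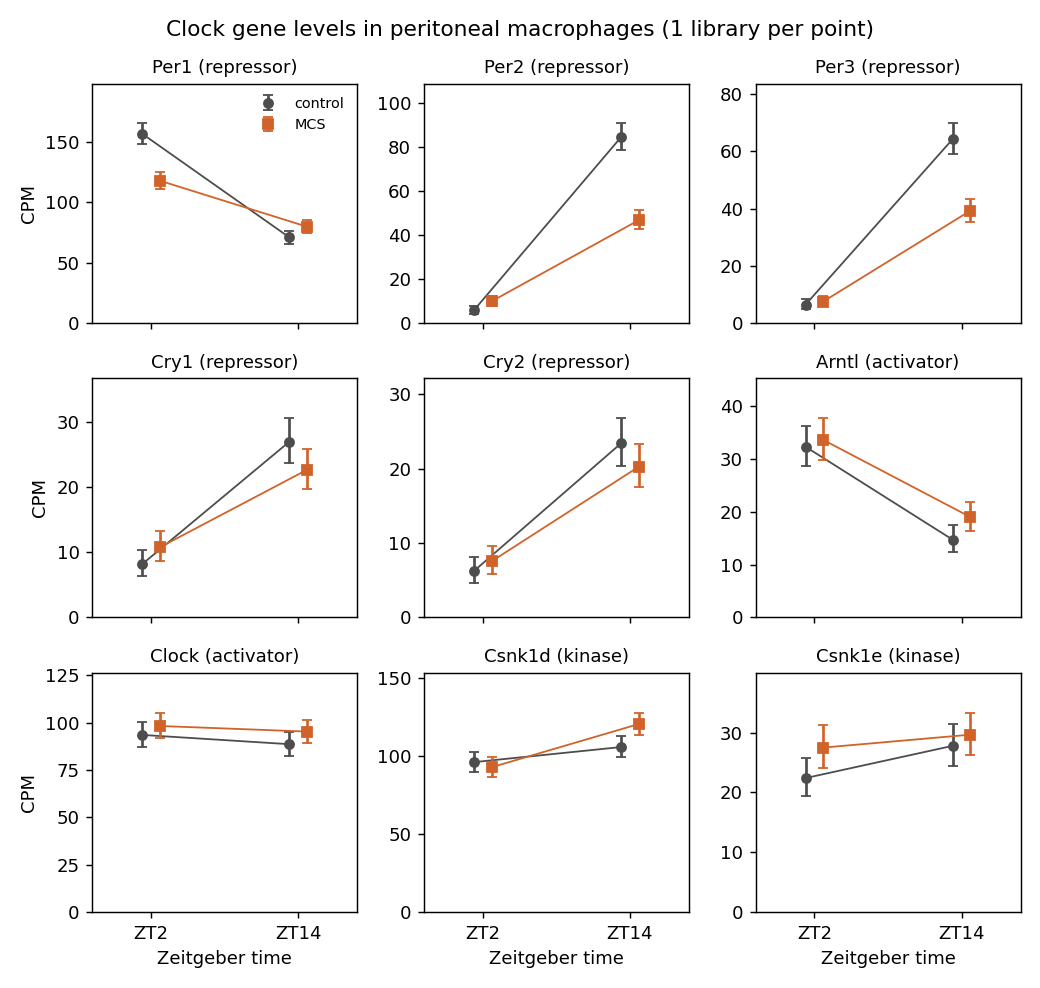
Level of each of the 9 genes in CPM (vertical axes, each starting at 0) at ZT2 and ZT14 (horizontal axes) in control (grey circles) and MCS (orange squares), 1 library per point, with bars for the 95% counting interval of each level. *Per2*, *Per3*, *Cry1* and *Cry2* are higher at ZT14, *Per1* and *Arntl* are higher at ZT2, and the lines of the 5 repressors and *Arntl* are flatter in MCS.

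A gene counted as past 2-fold when its log2 ratio exceeded 1 in size and the log2 of its mean CPM in the compared libraries exceeded 0. In control, 6 of the 9 genes passed between ZT2 and ZT14, against 3.61% of all 12465 genes tested. Of these, 2 (*Per1* and *Arntl*) were higher at ZT2, against 2.42% of all genes, and 4 (*Per2*, *Per3*, *Cry1* and *Cry2*) were lower, against 1.19%. The counting interval excluded no change for 8 of the 9, all but *Clock*, against 29.5% of all genes. In MCS, 4 of the 9 passed, against 5.83% of 12534 genes. All 4 were lower at ZT2 (*Per2*, *Per3*, *Cry1* and *Cry2*), against 1.87% of all genes, and 0 were higher, against 3.96%. The interval excluded no change for 7 of the 9, all but *Clock* and *Csnk1e*, against 44.0%. The 5 repressors had a median log2 ratio of -1.89 in control against -1.41 in MCS, and the 2 activators one of 0.60 against 0.43. The medians of the 2 kinases were -0.22 and -0.24, while the medians over all genes were -0.00 and 0.01.

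Reads were also tested for a time difference common to control and MCS with edgeR's quasi-likelihood test, fitted with additive terms for time and MCS, which leaves 1 residual degree of freedom over the 4 libraries. It called 6 of the 9 genes for time at an adjusted threshold of 0.05, against 2.18% of 12404 genes. *Per3* had a log2 fold change of ZT2 over ZT14 of -2.87 (Benjamini-Hochberg adjusted p = 9.95e-10), and *Per2* one of -3.04 (adjusted p = 1.91e-09). The cryptochromes followed, *Cry2* with -1.66 (adjusted p = 3.74e-05) and *Cry1* with -1.39 (adjusted p = 0.00029). *Per1* had 0.86 (adjusted p = 0.00326) and *Arntl* 0.98 (adjusted p = 0.00486). Each of these 6 genes had the same direction in both pairs of libraries. Since each condition is 1 library, the only residual is how the time difference departs between control and MCS. These p-values thus do not measure the spread between mice. DESeq2 called 5 of the 6 genes, with adjusted p of 1.28e-13 for *Per3*, 0.00672 for *Cry2*, 0.0103 for *Per2*, 0.0301 for *Cry1* and 0.0420 for *Per1*. *Arntl* was not called by DESeq2 (adjusted p = 0.166). *Clock*, *Csnk1d* and *Csnk1e* were not called by edgeR, with adjusted p of 0.978, 0.696 and 0.880.

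The effect of MCS at ZT2, directly after the current, was below 2-fold for all 9 genes, so 0 of 9 passed against 2.21% of 12612 genes. Intervals excluded no change for 3 of the 9, against 22.5% of all genes. *Per1* was lower in MCS, with a log2 ratio of MCS to control of -0.41 (95% interval -0.53 to -0.29). *Per2* was higher, with 0.77 (95% interval 0.26 to 1.32), on 84 reads in MCS and 49 in control. *Csnk1e* was higher as well, with 0.29 (95% interval 0.02 to 0.58). Ratios of the other 6 genes lay between -0.05 (*Csnk1d*) and 0.39 (*Cry1*, 95% interval -0.07 to 0.86), with intervals that included no change. *Arntl* and *Clock* had 0.06 and 0.07. With 3 of 9 beside 22.5%, the 9 genes stood near the background at ZT2.

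At ZT14, 12 h after the current, 0 of the 9 genes passed 2-fold, against 3.40% of 12368 genes, and intervals excluded no change for 5 of the 9, against 37.6%. As at ZT2, this count stood near the background. *Per2* and *Per3* were lower in MCS, with log2 ratios of -0.85 (95% interval -1.03 to -0.69) and -0.71 (95% interval -0.90 to -0.53). *Arntl* was higher, with 0.37 (95% interval 0.04 to 0.70), as was *Csnk1d*, with 0.19 (95% interval 0.06 to 0.31). *Per1* had 0.17 (95% interval 0.02 to 0.32). The intervals of *Cry1* and *Cry2* included no change, with ratios of -0.25 and -0.21, as did those of *Clock* and *Csnk1e*, with 0.10 and 0.09. The median ratio was -0.25 for the repressors, 0.24 for the activators and 0.00 over all genes. This comparison and the time comparison in control share the control library at ZT14 and are not independent of each other. The edgeR test for an effect of MCS common to both times called 0 of the 9 genes, against 0.185% of 12404 genes. Effects of opposite sign at ZT2 and ZT14 cancel in such a test, as for *Per2* with 0.77 and -0.85. It therefore cannot show effects that differ between the times. None of the 9 had an unadjusted p below 0.05 in it, and DESeq2 called 0 of the 9 as well.

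For 6 of the 9 genes the MCS ratio had opposite signs at ZT2 and ZT14, a share near the 58.5% found over 12511 genes, and of the 6 only *Per1* and *Per2* had intervals that excluded no change at both times. The difference of the MCS log2 ratios, ZT14 minus ZT2, was -1.63 for *Per2* (95% counting interval -2.17 to -1.10), -0.94 for *Per3* (95% interval -1.49 to -0.39) and -0.64 for *Cry1* (95% interval -1.16 to -0.13). It was 0.58 for *Per1* (95% interval 0.39 to 0.77) and 0.24 for *Csnk1d* (95% interval 0.05 to 0.42). Beside 37.0% of 12511 genes, and so again near the background, these 5 of 9 intervals excluded no difference. Intervals of *Cry2*, *Arntl*, *Clock* and *Csnk1e* included it, with differences of -0.48, 0.31, 0.03 and -0.20. The same values can be read as a smaller time difference in MCS. Time ratios did not change sign between control and MCS for 9 of the 9 genes, against 53.2% of the 12511 genes, although for *Clock* both intervals included 0. In MCS they lay nearer to 0 for 8 of the 9, the exception being *Csnk1d*. Over the 12511 genes with a mean above 1 CPM, 40.2% had a ratio nearer 0 in MCS, and the median absolute ratio of the genes tested was larger in MCS (0.259) than in control (0.180). *Per1* kept 49.2% of its control log2 ratio, *Per2* 58.0%, *Cry1* 62.4%, *Per3* 71.9%, *Arntl* 72.5% and *Cry2* 74.7%. *Csnk1e* had 35.1%, *Clock* 56.9% and *Csnk1d* 272%, each of a control ratio below 2-fold.

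**Figure D2:**
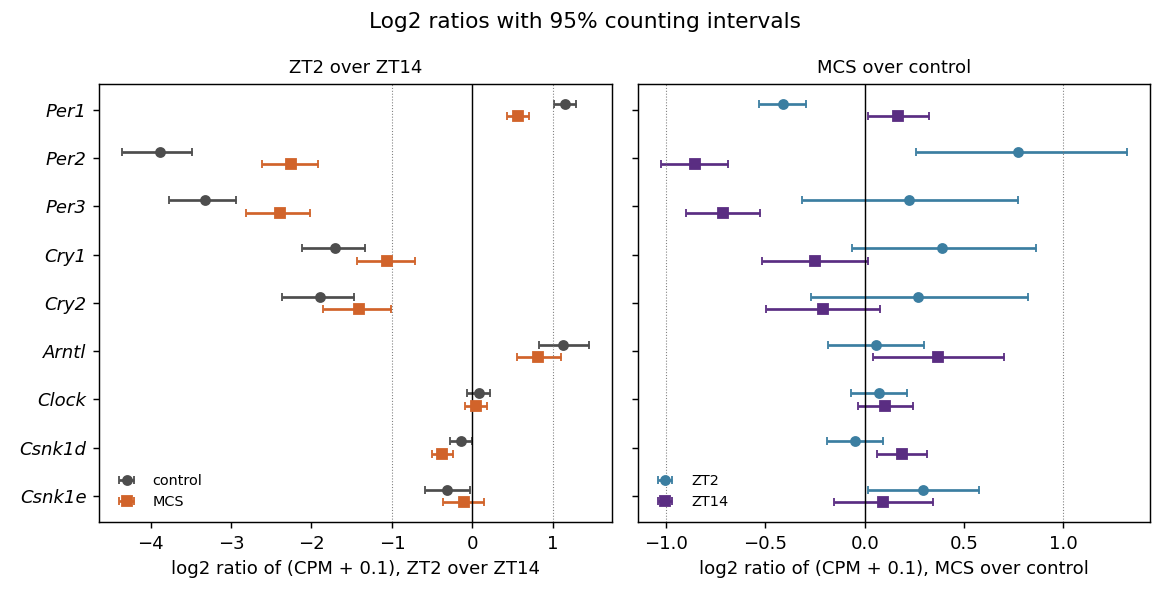
Log2 ratios of CPM + 0.1 (horizontal axes) of the 9 genes with 95% counting intervals, for ZT2 over ZT14 in control and MCS (left) and for MCS over control at ZT2 and ZT14 (right), 1 library per condition, with dotted lines at a 2-fold difference. On the left the MCS points of all genes but *Csnk1d* lie nearer 0, and on the right the ZT2 and ZT14 points of *Per2* lie at 0.77 and -0.85.

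To set repressors against activators in each library, the mean log2 level of the 2 activators was taken from that of the 5 repressors. This index was -2.14, 0.40, -1.95 and -0.21. Its absolute value depends on transcript lengths, so only its differences between libraries are read. It was lower at ZT2 than at ZT14 by far, with a difference of -2.53 in control (95% counting interval -2.77 to -2.30) and -1.74 in MCS (95% interval -1.95 to -1.53). At ZT14 the index was lower in MCS than in control, with a difference of -0.61 (95% interval -0.81 to -0.41). At ZT2 the interval of the difference included 0, with 0.19 (95% interval -0.06 to 0.43). This value rested on single genes, since it was 0.35 without *Per1* (95% interval 0.07 to 0.64) and 0.05 without *Per2* (95% interval -0.20 to 0.31). *Per1* and *Per2* pulled the index in opposite directions, and without *Per1* the time difference was -3.30 in control and -2.21 in MCS.

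Levels were compared between genes per kilobase (kb) of the principal coding transcript. Such comparisons depend on the transcript chosen, and no other length was tried beyond the cases of *Cry2* and *Clock* named below. *Per1* had 33.6, 15.2, 25.3 and 17.1 CPM per kb, *Per2* 0.970, 14.5, 1.67 and 8.01, and *Per3* 1.06, 10.7, 1.24 and 6.55. At ZT2 *Per1* was far above its paralogs, whereas in control at ZT14 the intervals of *Per1* (14.0 to 16.4) and *Per2* (13.5 to 15.6) overlapped. The summed Period level was 35.6, 40.4, 28.2 and 31.6 CPM per kb, which differed little between ZT2 and ZT14 beside the differences of its members. *Per1* made up 94.3%, 37.5%, 89.7% and 54.0% of that sum. As shares of Period reads, without length, *Per1* took 92.9% (95% Clopper-Pearson interval 91.5 to 94.2), 32.2% (30.2 to 34.3), 87.3% (85.2 to 89.2) and 48.1% (45.7 to 50.6). The *Per1* share was thus highest in control at ZT2 and lowest in control at ZT14, with MCS between them at both times, and none of the 4 intervals overlapped.

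**Figure D3:**
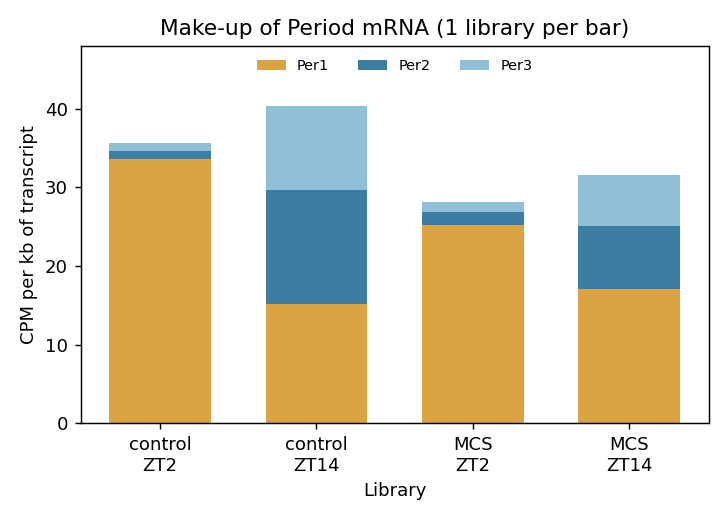
Summed level of *Per1*, *Per2* and *Per3* in CPM per kb of transcript (vertical axis, from 0) in each of the 4 libraries (horizontal axis), with a colored segment for each gene. *Per1* fills 94.3% of the bar of control at ZT2 and 37.5% of that of control at ZT14, against 89.7% and 54.0% in MCS.

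The cryptochromes behaved as a pair. *Cry1* had 2.71, 8.93, 3.57 and 7.50 CPM per kb and *Cry2* 1.57, 5.88, 1.90 and 5.09. At these lengths *Cry1* was above *Cry2* in all 4 libraries. With the shorter coding transcript of *Cry2*, 2160 bases against the 3976 used, *Cry2* would be above *Cry1* in all libraries but MCS at ZT2. *Cry1* took 56.8%, 53.6%, 58.9% and 52.9% of their reads, with 95% intervals that overlapped among all 4 libraries. The ratio of the Period sum to the cryptochrome sum per kb was 8.33, 2.73, 5.16 and 2.51, higher at ZT2 in both treatments. Among the activators, *Arntl* had 10.9, 4.95, 11.3 and 6.39 CPM per kb and *Clock* 9.60, 9.10, 10.1 and 9.78. *Clock* per kb was 0.884, 1.84, 0.892 and 1.53 times *Arntl*. At these lengths *Clock* exceeded its partner at ZT14, while at ZT2 their counting intervals overlapped. With the shortest coding transcript of *Clock*, 5508 bases against the 9744 used, *Clock* would exceed *Arntl* at ZT2 as well. Repressors summed per kb were 1.95, 3.93, 1.57 and 2.73 times the activators. *Csnk1d* had 26.2, 28.8, 25.3 and 32.9 CPM per kb and *Csnk1e* 8.32, 10.3, 10.2 and 11.0. *Csnk1d* ranked 1 among the 9 genes in both ZT14 libraries and in MCS at ZT2, where its interval (23.6 to 27.1) overlapped that of *Per1* (23.7 to 26.9), and *Per1* ranked 1 in control at ZT2. The Period sum was 1.03, 1.03, 0.793 and 0.721 times the kinase sum, equal at both times in control and lower in both MCS libraries.

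Other genes of the clock pathway were taken from a list of 42, of which 41 were listed (*Rorb* was not) and 36 had a log2 mean CPM above 0 in the control time comparison. Between ZT2 and ZT14 in control, 1 of the 36 was more than 2-fold higher and 6 were lower at ZT2, against 2.42% and 1.19% of all genes, with a median log2 ratio of -0.07. In MCS, 1 was higher and 2 were lower among 35 tested, against 3.96% and 1.87%, with a median of -0.08. With MCS at ZT2, 0 of 36 passed 2-fold, against 2.21%, and at ZT14 0 were higher and 2 lower, against 3.40% in either direction. The higher gene in control was *Nfil3*, and the lower ones were *Nr1d1*, *Nr1d2*, *Dbp*, *Tef*, *Bhlhe40* and *Ciart*, of which *Ciart* had an interval that included no change (-2.82 to 0.32). The E-box repressor *Bhlhe40* had 82.6, 200.3, 118 and 206 CPM and its paralog *Bhlhe41* 77.7, 132, 90.8 and 81.4 CPM. *Bhlhe40* was higher at ZT14 in both treatments, whereas *Bhlhe41* was higher at ZT14 in control alone. Of 7 tested genes for the turnover of PER and CRY, 0 passed 2-fold in any of the 4 comparisons. *Fbxw11*, an F-box protein that acts on PER, had 47.6, 62.6, 45.5 and 66.7 CPM. The same count of 0 held for 7 other kinases, 4 phosphatases and 8 partners of the PER complex. Beside shares of 2.21% to 5.83% over all genes, a count of 0 in such short lists does not set them apart. The activator paralogs were scarce, *Npas2* with at most 0.348 CPM and *Arntl2* with 1.27, 1.87, 1.04 and 1.23 CPM. Among the REV-ERB, ROR and PAR bZIP factors, *Nr1d1* had 4.27, 26.0, 4.52 and 8.38 CPM and *Tef* 15.0, 121, 15.7 and 82.7 CPM, both higher at ZT14 than at ZT2, *Nr1d1* by less than 2-fold in MCS. *Nr1d1* and *Dbp* were the 2 genes of the list past 2-fold lower with MCS at ZT14.

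The genes outside the 9 most like a member were sought by the Euclidean distance between log2 levels over the 4 libraries, each centered on its own mean, among 8622 genes with a mean of at least 10 CPM, the 9 members left out. Nearest to *Per3* outside the members was *Tef*, at a distance of 0.230, with *Cyp26a1* next at 1.06, then *Cdc42ep2* at 1.23, and *Nr1d1* and *Tspan4* after it at up to 1.41. *Tef* was also the nearest such gene to *Per2*, at 0.663, ahead of *Cyp26a1* (1.25), *Cdc42ep2* (1.48), *Nr1d1* (1.52) and *Tspan4* (1.80). The distance is not scaled, so genes with large differences between libraries, such as *Per2* and *Per3*, lie far from most others by construction. A flat gene lies near many for the same reason. *Per2* and *Per3* lay 0.454 from each other. *Per1* was closest to *Rnf169* (0.0522), *Akap7* (0.111), *Arl4a* (0.123), *Dgkg* (0.137) and *Rnd3* (0.150). *Arntl* was closest to *Ms4a4b* (0.0819), *Pde4d* (0.0826), *Pik3r5* (0.0851), *Ctla2b* (0.136) and *Net1* (0.166). Of the 5 members searched, *Csnk1d* had the closest neighbours, *Irak4* (0.0130), *Wdr45b* (0.0171), *Trappc13* (0.0217), *Zdhhc7* (0.0257) and *Agps* (0.0264). Among the 9 genes, *Per1* lay 0.379 from *Arntl* but 4.07 from *Per2*, *Cry1* lay 0.280 from *Cry2*, and *Csnk1d* lay 0.257 from *Csnk1e*.

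By GENCODE vM21 on GRCm38, the genes lie at chr11:69095217-69109960 (*Per1*, plus strand), chr1:91415982-91459324 (*Per2*, minus), chr4:151003652-151044665 (*Per3*, minus), chr10:85131700-85185064 (*Cry1*, minus) and chr2:92403646-92434043 (*Cry2*, minus). *Arntl* lies at chr7:113207465-113314126 (plus), *Clock* at chr5:76209868-76304792 (minus), *Csnk1d* at chr11:120961749-120991330 (minus) and *Csnk1e* at chr15:79417856-79455566 (minus). No transcript of another gene matched a member at 95% identity over 100 bases. Exons of *Cry2* overlap those of *D930015M05Rik* on the opposite strand, which had 0.346, 1.10, 0.464 and 0.716 CPM. Exons of *Arntl*, *Csnk1d* and *Csnk1e* overlap opposite-strand genes that were not listed. The library kit was directional, but neither labels nor methods say whether the counting used strand, so reads of such a pair cannot be told apart.

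Promoter windows, from 250 bases before to 50 after a transcript start, were taken from RefSeq (GRCm38.p6) and matched 7 of the 9 members with 14 windows, all but *Per2* and *Csnk1d*. Each was searched on both strands for the E-box CACGTG, the E-prime box CACGTT, the D-box TTATGTAA, the CRE core TGACG and the RORE core AGGTCA, which respectively occur in 7.15%, 4.68%, 0.938%, 20.8% and 16.3% of all 32851 windows. By gene, the motifs occur in 8.09%, 5.44%, 1.11%, 23.0% and 18.1% of 27025 genes, in the same order. Within a window no match overlapped another. A match describes letters and is neither a bound site nor a cause. The stretches below are those of 4 repressors called for time by the edgeR test, with matches to any of these motifs in capitals. They are printed 5′ to 3′ on the strand of the gene and stop before its first annotated exon base where that falls in the window. The *Per1* stretches, chr11:69098699-69098947 and chr11:69099902-69100151 on the plus strand, lie outside its exons but inside the span of the gene. Those of *Per3* (chr4:151044666-151044915), *Cry1* (chr10:85185065-85185304) and *Cry2* (chr2:92434070-92434319) lie on the minus strand, upstream of the gene and outside its annotated exons.
Per1 start 1: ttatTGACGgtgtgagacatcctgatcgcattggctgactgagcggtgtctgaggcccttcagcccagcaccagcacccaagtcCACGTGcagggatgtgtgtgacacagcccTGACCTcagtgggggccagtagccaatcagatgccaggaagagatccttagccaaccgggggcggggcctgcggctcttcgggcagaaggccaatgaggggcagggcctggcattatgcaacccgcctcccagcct
Per1 start 2: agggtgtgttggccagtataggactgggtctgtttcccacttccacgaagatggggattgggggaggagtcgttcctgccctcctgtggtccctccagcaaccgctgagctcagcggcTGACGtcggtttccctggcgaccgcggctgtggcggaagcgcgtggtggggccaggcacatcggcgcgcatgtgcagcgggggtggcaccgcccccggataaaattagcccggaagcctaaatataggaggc
Per3: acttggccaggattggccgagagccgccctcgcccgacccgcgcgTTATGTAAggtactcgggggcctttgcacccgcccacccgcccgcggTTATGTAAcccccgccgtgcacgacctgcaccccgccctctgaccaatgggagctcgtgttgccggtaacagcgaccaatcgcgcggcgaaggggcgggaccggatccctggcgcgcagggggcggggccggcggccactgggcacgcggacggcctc
Cry1: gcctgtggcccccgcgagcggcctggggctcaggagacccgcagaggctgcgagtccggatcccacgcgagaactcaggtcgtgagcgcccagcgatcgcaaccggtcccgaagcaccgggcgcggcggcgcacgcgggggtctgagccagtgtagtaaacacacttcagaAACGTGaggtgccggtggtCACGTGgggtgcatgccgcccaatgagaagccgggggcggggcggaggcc
Cry2: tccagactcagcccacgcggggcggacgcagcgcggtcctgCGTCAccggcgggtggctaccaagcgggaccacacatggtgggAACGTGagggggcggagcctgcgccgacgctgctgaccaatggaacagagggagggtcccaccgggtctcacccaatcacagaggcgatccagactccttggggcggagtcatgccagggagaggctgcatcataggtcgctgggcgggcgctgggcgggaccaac

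The stretch before *Per1* start 1 holds an E-box at -166 from the start, a CRE core at -246 and a RORE core on the other strand (TGACCT) at -137, and that before start 2 holds a CRE core at -132. *Per3*, in which ZT14 exceeded ZT2 by 10.1-fold in control, has 2 D-boxes, at -205 and -158, and was the only member with this motif in a window. *Cry1* has an E-box at -60 and an E-prime box on the other strand (AACGTG) at -79, and its CRE core at -8 falls in the exon bases left out. *Cry2* has an E-prime box on the other strand at -166 and a CRE core on the other strand (CGTCA) at -209. E-boxes thus stood in windows of both *Per1*, high at ZT2, and *Cry1*, high at ZT14. RORE cores stood in windows of 3 of the 7 members with a window (*Per1*, *Arntl* and *Clock*), beside 18.1% of all genes. CRE cores stood in windows of 4 (*Per1*, *Cry1*, *Cry2* and *Csnk1e*), beside 23.0%. Both motifs thus also occurred in members not called for time. They lay at -119 in *Clock* and at -72 and -158 in 2 overlapping windows of *Csnk1e*, which are the same match. *Arntl* had its RORE core at position 32 after its start 2, in the first exon, shown here as 30 bases at chr7:113207530-113207559 on the plus strand.
Arntl: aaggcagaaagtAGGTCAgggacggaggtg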

How the data were processed

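Total RNA of sorted peritoneal macrophages was depleted of ribosomal RNA and sequenced from directional libraries, 1 for each of the 4 conditions. By the study's methods and the submitters' processing notes, the authors used Trimmomatic 0.38 for trimming and RSEM 1.3.0 with Bowtie2 for counting against mm10, and deposited CPM normalized by edgeR. The annotation version, the strand setting and any filter that set which genes were listed are not given in the sources used here. The labels name another RNA extraction kit than the methods do.

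Dividing each deposited CPM column by its smallest step gave whole reads, within 0.05 read, for 100% of values. The totals were 8658191, 9217493, 8365590 and 9953243 reads in control at ZT2, control at ZT14, MCS at ZT2 and MCS at ZT14. By the smallest steps, 1 read was worth 0.115, 0.110, 0.116 and 0.102 CPM. These steps correspond to normalized library sizes of 8658740, 9103426, 8620125 and 9779756 reads, which differ from the totals. RSEM estimates need not be whole, so these reads include any rounding by the authors. Residual ribosomal RNA (*Rn45s*) made up 6.18%, 6.52%, 4.47% and 6.40% of each library's CPM.

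The unit is CPM, so log2 ratios of CPM + 0.1 were the main measure, which understates ratios of low genes. Intervals were exact conditional binomial intervals at 95% for ratios, Wald intervals on the reads for differences of ratios, and error propagation from the reads for the index. As an alternative, edgeR's quasi-likelihood test was run on the recovered reads, keeping the 12404 genes that reached 40 reads over all libraries, with Benjamini-Hochberg adjustment over all of them. It called 271 genes for time and 23 for MCS, and DESeq2 served as a second count test. Ratios and count test were tested on simulated data. Other alternatives were pseudocounts, scalings, thresholds and index members.

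By rule, the genes named are the 9 members, a list of 42 other clock genes, and the 5 nearest genes each of *Per1*, *Per2*, *Per3*, *Arntl* and *Csnk1d*. Cell type markers, *Rn45s*, genes with overlapping exons and *Gm18853*, picked after its value was seen, are named besides. The member genes and the lists were chosen with earlier results of these data known. Lengths, exons and gene positions came from GENCODE vM21, near-identical transcripts from blastn 2.17.0, and promoter windows from RefSeq. In the list, *Skp1* was matched by its synonym *Skp1a*. Scripts ran in Python 3.11.15 (scipy 1.17.1, numpy 2.4.6, matplotlib 3.10.9, pandas 2.3.3) and R 4.3.3 with edgeR 4.0.16 and DESeq2 1.42.0.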

Additional observations from a re-analysis of the deposited data

Results flagged for a closer look

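For 6 of the 9 genes, the log2 ratio of MCS to control had opposite signs at ZT2 and ZT14, and this is why they are given again. Opposite signs were found in 58.5% of 12511 genes, so the share of the 9 is near the background. *Per1* had a negative ratio at ZT2 and a positive one at ZT14, with a difference of the log2 ratios, ZT14 minus ZT2, of 0.58. *Csnk1d* had the same order of signs, with 0.24. *Per2*, *Per3*, *Cry1* and *Cry2* had positive ratios at ZT2 and negative ones at ZT14, with differences of -1.63, -0.94, -0.64 and -0.48. The counting intervals excluded no change at both times for *Per1* and *Per2*, at ZT14 alone for *Per3* and *Csnk1d*, and at neither time for *Cry1* and *Cry2*. With 1 library per condition, the difference between the times was not tested across mice. For *Cry2* even the counting interval of the difference included 0 (-1.07 to 0.11).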

How the results depend on the processing

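Each condition has 1 library and the labels pair no mice between libraries, so no analysis of pairs of mice was run. The edgeR fit with additive terms tested a single time difference shared by control and MCS, not one within each treatment. Of the log2 ratios of single members, 180 of 180 alternatives over pseudocounts and scalings kept their direction and stayed within the counting interval, and the median over all genes moved to at most 0.07. With plain scaling to the read totals, the time ratio of *Cry1* in MCS came to just short of 2-fold (log2 -0.998), which left 3 members past it instead of 4. With the same scaling, the time ratio of *Csnk1d* in control moved from -0.138 to -0.120, while its main interval ended at -0.003. Its place among the members whose interval excluded no change thus depends on the scaling. The index of repressors minus activators changed with its genes, as its construction implies. Its time difference in control was -3.30 without *Per1*, -2.05 without *Per2* and -3.06 without *Clock*, and in MCS -2.21, -1.51 and -2.13. For MCS at ZT2 its difference was 0.35 without *Per1*, with an interval that excluded 0, and 0.05 without *Per2*, 0.19 without *Clock* and 0.13 without *Cry1* and *Cry2*, with intervals that included it, against 0.19 with all genes. With a threshold of 0.5 on the absolute log2 ratio in place of 1, 6 members instead of 4 passed for time in MCS (23.6% of all genes), and the members past it were 1 (*Per2*) for MCS at ZT2 and 2 (*Per2* and *Per3*) at ZT14, beside 10.4% and 16.7% of all genes and against 0 each before, because the threshold is lower. The count tests differed in how many genes they called. For time, edgeR called 271 genes, or 295 with recomputed TMM factors and 380 without a minimum count, and DESeq2 called 81. For MCS the counts were 23, 24, 43 and 5, with 299, 304, 418 and 43 genes at an unadjusted p below 0.05, and 0 members each time. DESeq2 did not call *Arntl* for time (log2 fold change 0.98, adjusted p = 0.166, against 0.00486, 0.00308 and 0.000359 with the edgeR fits), and the cause was not tested. Depth limits the ZT2 values of *Per2*, *Per3*, *Cry1* and *Cry2* most, since between 49 and 93 reads stand behind each.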
